A study of Mus musculus with 8 samples.

Results

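The DNA replication and S phase genes followed here are 44 genes of the replication machinery, matched by symbol from a list. That list was chosen with earlier results of these data known. All 44 were found among the 21970 genes of the deposited table. They were followed in 8 poly(A) RNA sequencing libraries made from the whole ventricle of mice of the inbred strain C57BL/6J, with no genotype or treatment named for any group. Each of 4 ages, given as postnatal day (P3, P6, P12, P24), had 2 libraries. The study compared these ages to follow cell cycle exit and maturation of cardiomyocytes, and its title names retinoic acid as a signal in them. Nothing in the labels says whether replicates came from separate animals, litters or pools, so the tests measure the spread between these libraries only.

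A cell copies its genome once per division. In G1, the origin recognition complex, Cdc6 and Cdt1 load the ring-shaped MCM helicase onto DNA, a step called licensing, and in S phase Cdc45 and GINS switch the helicase on, primase and DNA polymerases copy both strands, and the clamp PCNA holds the polymerases in place. Transcription of many of these genes is driven by E2F factors as cells enter S phase. In the mouse heart, muscle cells pass through a last round of DNA synthesis in the first days after birth, many of them without dividing, while other cells of the heart go on dividing.

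Reads in protein-coding genes numbered between 23375967 and 28745112 per library, and values are the authors' normalized counts unless FPKM, a level per transcript length, is named. All 44 genes passed the filter on low values, a normalized count of at least 10 in at least 2 libraries, and 42 of them were at 10 or above in every library. Replicates differed by a median absolute log2 gap of 0.39 at P6 over all genes tested, against 0.118 to 0.154 at the other stages, while over the 44 genes it was 0.335 at P6 and 0.326 at P12, against 0.121 at P3 and 0.13 at P24, so their P6 and P12 means were the least precise. Cell type markers that the tissue should hold were present: the 6 heart muscle markers summed to 1264000 and 1496000 at P24, against 1080000 and 1157000 at P3.

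From P3 to P24 the replication genes fell together. At P24, 42 of the 44 were lower than at P3 and none was higher (limma, Benjamini-Hochberg (BH) adjusted p below 0.05), where 18.2% of all 14055 genes tested fell and 18.7% rose. The median log2 change was -2.64, against -0.02 over all genes tested, and the median gene stood at P24 at 15.9% of its P3 mean. Together the 44 genes took 0.0409% and 0.0392% of the reads in the P24 libraries, against 0.233% and 0.206% in the P3 libraries. Mitochondrially encoded transcripts took 18.8% and 19.0% of the reads in the P24 libraries, against 9.64% and 10.7% in the P3 libraries, and their part in these shares was not tested. Both P24 libraries lay below both P3 libraries for all 44 genes, which held for 39.9% of genes tested. In whole tissue, fewer cells in S phase and less of these transcripts per cell cannot be told apart.

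**Figure D1:**
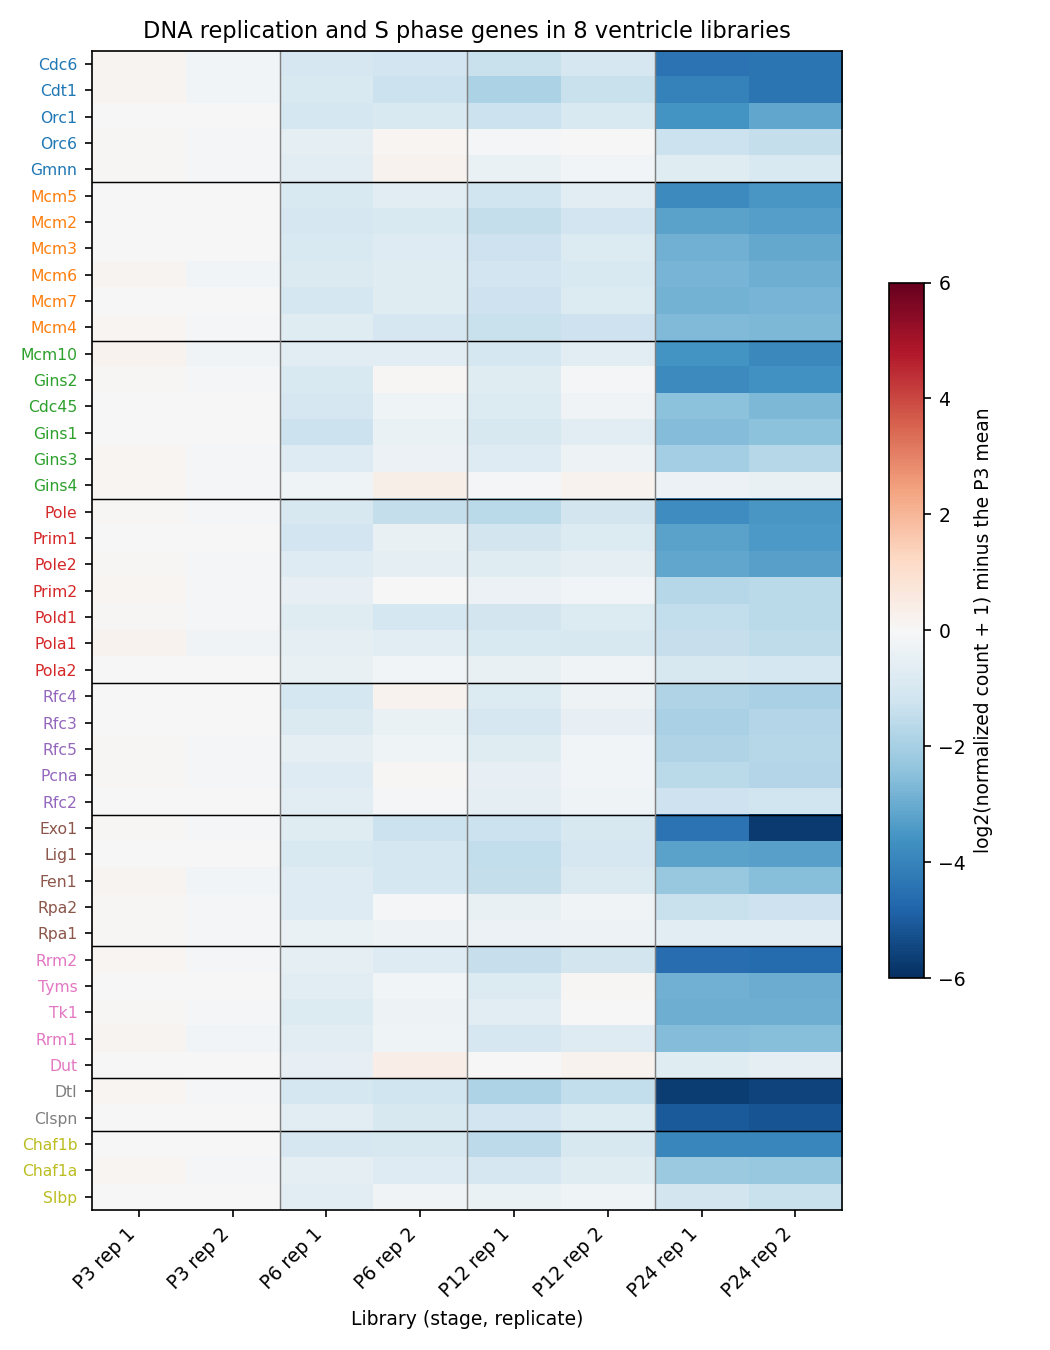
Heat map of the 44 genes (rows, in blocks by role, with names coloured by block) in the 8 libraries (columns, from P3 to P24), as log2(normalized count + 1) minus the gene's P3 mean. Colour is deepest at P24, while Gins4, Dut, Rpa1 and Gmnn stay pale.

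The depth of the fall differed widely between members. At P24, 5 genes (Dtl, Clspn, Exo1, Rrm2 and Cdc6) stood below 5% of their P3 means and 8 more below 10%. Another 14 stood between 10% and 25%, 13 between 25% and 50%, and 4 (Gins4, Dut, Rpa1 and Gmnn) above 50%. Over the 44 genes, the Spearman correlation of the P3 mean with the log2 change was 0.18, a description over genes that share the same libraries.

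**Figure D2:**
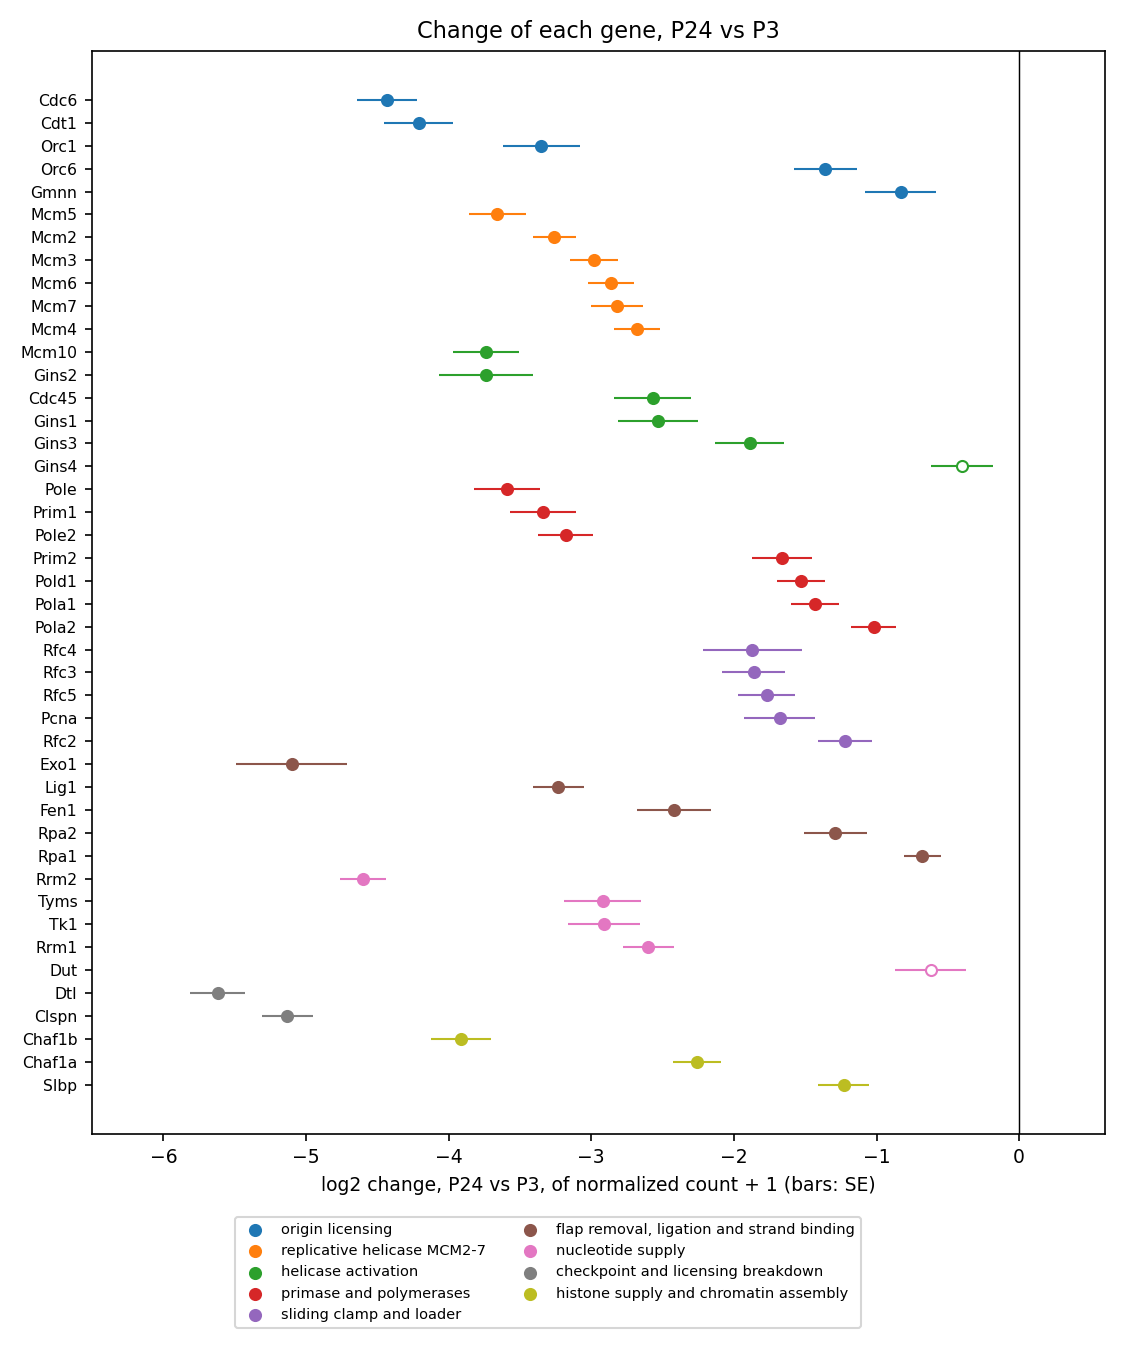
The log2 change of normalized count + 1 at P24 vs P3 for each gene, with its standard error, coloured by role; filled points passed the test and open points did not. Changes run from -5.62 for Dtl to -0.40 for Gins4, and the open points are Gins4 and Dut.

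Promoters are shown because the members moved together and E2F binding sites are the best known element that such genes share. RefSeq windows of 300 bases, 250 before the start and the rest after it, from assembly GRCm38.p6, were matched by symbol for 35 of the 44 genes; Mcm4, Gins1, Gins2, Gins4, Prim2, Pole, Rfc2, Exo1 and Gmnn were not matched. The E2F motif was searched as TTTCCCGC, TTTCGCGC, TTTGCCGC and TTTGGCGC on both strands, and overlapping matches were each counted. It occurred in the windows of 15 of the 35 genes (42.9%), against 4.5% of the 11067 genes tested that had a window and 2.26% of all 32851 windows. The 15 were Dtl, Clspn, Cdc6, Cdt1, Orc1, Mcm3, Mcm5, Mcm6, Mcm7, Gins3, Rfc3, Pola1, Pole2, Pold1 and Lig1. Of 21 matches in all, 14 were centred within 50 bases of the start. Windows of the genes with the deepest fall (Dtl), with the most matches (Mcm6) and with neither a passed test nor a match (Dut) follow, with E2F matches in capitals.
Dtl window, chr1:191575495-191575794, minus strand: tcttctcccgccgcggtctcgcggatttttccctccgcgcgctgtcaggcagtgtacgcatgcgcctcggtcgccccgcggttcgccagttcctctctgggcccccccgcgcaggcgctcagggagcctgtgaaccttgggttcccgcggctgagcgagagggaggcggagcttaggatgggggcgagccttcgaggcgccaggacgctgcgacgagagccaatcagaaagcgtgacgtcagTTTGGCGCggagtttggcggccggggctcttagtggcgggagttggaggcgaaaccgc
Mcm6 window, chr1:128359656-128359955, minus strand: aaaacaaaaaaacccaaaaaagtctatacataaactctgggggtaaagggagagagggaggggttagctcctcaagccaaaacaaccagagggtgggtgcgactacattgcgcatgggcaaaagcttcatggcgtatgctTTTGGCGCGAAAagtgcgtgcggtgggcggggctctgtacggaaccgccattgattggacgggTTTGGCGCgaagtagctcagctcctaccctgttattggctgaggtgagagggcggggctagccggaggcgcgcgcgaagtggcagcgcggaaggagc
Dut window, chr2:125247265-125247564, plus strand: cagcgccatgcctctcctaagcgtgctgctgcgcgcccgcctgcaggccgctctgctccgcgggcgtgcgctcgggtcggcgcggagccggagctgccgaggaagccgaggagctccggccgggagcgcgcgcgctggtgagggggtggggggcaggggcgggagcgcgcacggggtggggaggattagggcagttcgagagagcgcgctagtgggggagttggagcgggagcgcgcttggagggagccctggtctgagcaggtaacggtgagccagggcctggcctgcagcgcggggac

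Matches in other genes are given with up to 12 flanking bases on each side, in the direction of the gene. The letters in capitals were set by the search, so that they recur between genes is not a result. Where the capitals begin with GCG, the motif lies on the opposite strand.
Clspn: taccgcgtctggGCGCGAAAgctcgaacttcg
Orc1: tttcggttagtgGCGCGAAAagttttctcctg
Lig1: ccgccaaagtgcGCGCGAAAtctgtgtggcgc
Cdc6: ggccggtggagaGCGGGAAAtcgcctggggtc
Pold1: gcgtatcttgtgGCGGGAAAagc
Cdt1: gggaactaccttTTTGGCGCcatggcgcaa
Mcm5: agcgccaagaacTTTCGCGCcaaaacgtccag
Pole2: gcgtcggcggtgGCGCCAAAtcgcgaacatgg
The first 3 share the core GCGCGAAA, Cdc6 and Pold1 share GCGGGAAA, and Cdt1 holds the same core as Dtl. Read on the other strand, Mcm5 holds the core of the first 3 and Pole2 that of Dtl. A further Mcm5 match, which overlaps the one printed and ends in lower case there, also holds the core of Dtl on the other strand. Genes with a match had a median log2 change of -3.18 at P24 vs P3 (15 genes, from -5.62 to -1.43), and genes with a window but no match one of -2.34 (20 genes, from -4.60 to -0.62). At P6 vs P3 these medians were -0.83 (from -1.12 to -0.55) and -0.45 (from -0.98 to -0.05). The ranges overlap, and Rrm2, with no match, fell by 4.60. The CHR motif of mitotic genes (TTTGAA or TTCGAA, both strands) occurred in at least 1 window of 6 of the 35 genes (17.1%). The share was 19 of 24 (79.2%) for the G2 and M phase genes used for comparison and 16.4% for genes tested. These are matches of letters, not shown binding, and no match says only that these letters are not in the window.

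**Figure D3:**
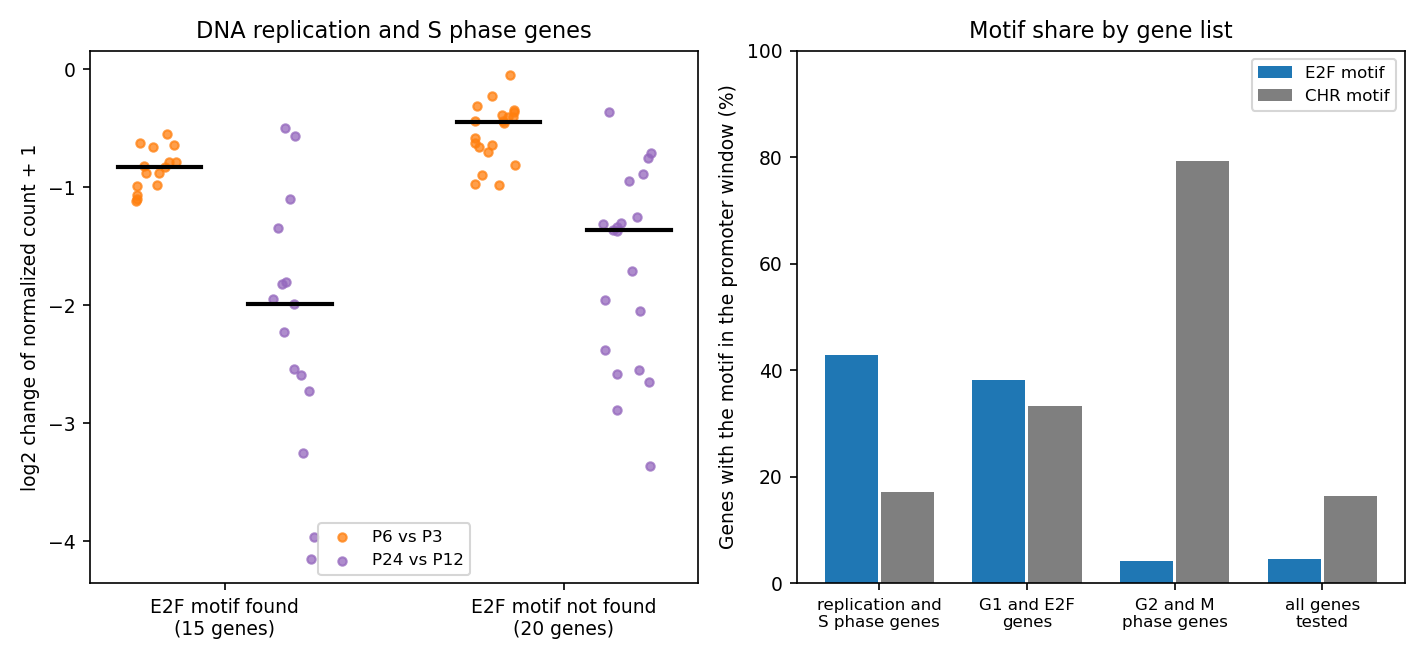
Left, log2 changes of the replication genes at P6 vs P3 and at P24 vs P12, by whether the E2F motif was found in the promoter window (points are genes, bars medians). Right, the percentage of genes with an E2F or CHR motif in 4 gene sets: the E2F motif was in 42.9% of replication genes and the CHR motif in 79.2% of G2 and M phase genes, against 4.5% and 16.4% of genes tested.

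All 5 licensing genes fell, 3 of them deeply. Cdc6, the loader of the helicase, lay at 493 and 386 in the P3 pair, 219.9 and 197 in the P6 pair, 172 and 217 in the P12 pair and 19.0 and 19.7 in the P24 pair. Its log2 change at P24 vs P3 was -4.43 ± 0.21 (SE) (limma, BH-adjusted p = 1.79e-06), with the P24 pair far below all other libraries. Cdt1, its partner, fell by 4.21, and Orc1, the subunit of the origin recognition complex that is rebuilt in each cycle, by 3.35. Orc6, another subunit of that complex, fell by 1.36. The other origin subunits Orc2, Orc3, Orc4 and Orc5, which were not members, had changes of -0.03, -0.07, 0.05 and -0.40 and none passed the test. Gmnn, or geminin, which binds Cdt1 and blocks relicensing, lay at 1366 and 1253 in the P3 pair, 833 and 1524 in the P6 pair, 979 and 1150 in the P12 pair and 780.4 and 689 in the P24 pair. Its P6 libraries overlapped those of P3 and P12, P12 lay below P3, and its log2 change at P24 vs P3 was -0.83 ± 0.25 (SE) (limma, BH-adjusted p = 0.0299). Its call was lost without either library of P3, P12 or P24, at limma BH-adjusted p between 0.0523 and 0.162. Per length, geminin transcripts exceeded those of Cdt1 by 34.3 and 37.5 times in the P24 libraries, against 3.15 and 3.65 times in the P3 libraries.

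All 6 subunits of the replicative helicase fell by similar amounts, with log2 changes at P24 vs P3 of -3.66 (Mcm5), -3.26 (Mcm2), -2.98 (Mcm3), -2.86 (Mcm6), -2.82 (Mcm7) and -2.68 (Mcm4). Mcm5 lay at 2376 and 2247 in the P3 pair, 1243 and 1428 in the P6 pair, 1001 and 1477 in the P12 pair and 163.9 and 201.7 in the P24 pair (log2 change at P24 vs P3 -3.66 ± 0.20 (SE), limma, BH-adjusted p = 3.49e-06). Mcm4, with the smallest change, lay at 1981 and 1706 in the P3 pair, 1115 and 902 in the P6 pair, 723 and 785 in the P12 pair and 291 and 279 in the P24 pair. The hexamer takes 1 copy of each subunit, and the per-length levels were close: the highest of the 6 exceeded the lowest by 2.36 and 2.02 times in the P24 libraries and by 1.5 and 1.47 times in the P3 libraries. In FPKM the 6 genes lay between 1.63 and 3.47 at P24 and between 17.2 and 24.5 at P3, as stage means.

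The factors that switch the helicase on did not keep such a balance. Mcm10, which helps to activate it, fell by 3.74, Cdc45 by 2.57, and the GINS subunits Gins1, Gins2 and Gins3 by 2.53, 3.74 and 1.89. Gins2 lay at 552 and 488 in the P3 pair, 272 and 543 in the P6 pair, 312 and 493 in the P12 pair and 35.2 and 40.6 in the P24 pair. Gins4 did not pass the test: it lay at 755 and 628 in the P3 pair, 567 and 885 in the P6 pair, 647 and 793 in the P12 pair and 537 and 505 in the P24 pair (log2 change -0.40 ± 0.22 (SE), limma, BH-adjusted p = 0.189). Its P24 libraries were nevertheless the lowest of the 8. GINS holds 1 copy of each subunit, yet per length Gins4 exceeded the lowest subunit by 46.3 and 37.8 times in the P24 libraries (Gins2), against 4.87 and 4.81 times in the P3 libraries (Gins3).

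**Figure D4:**
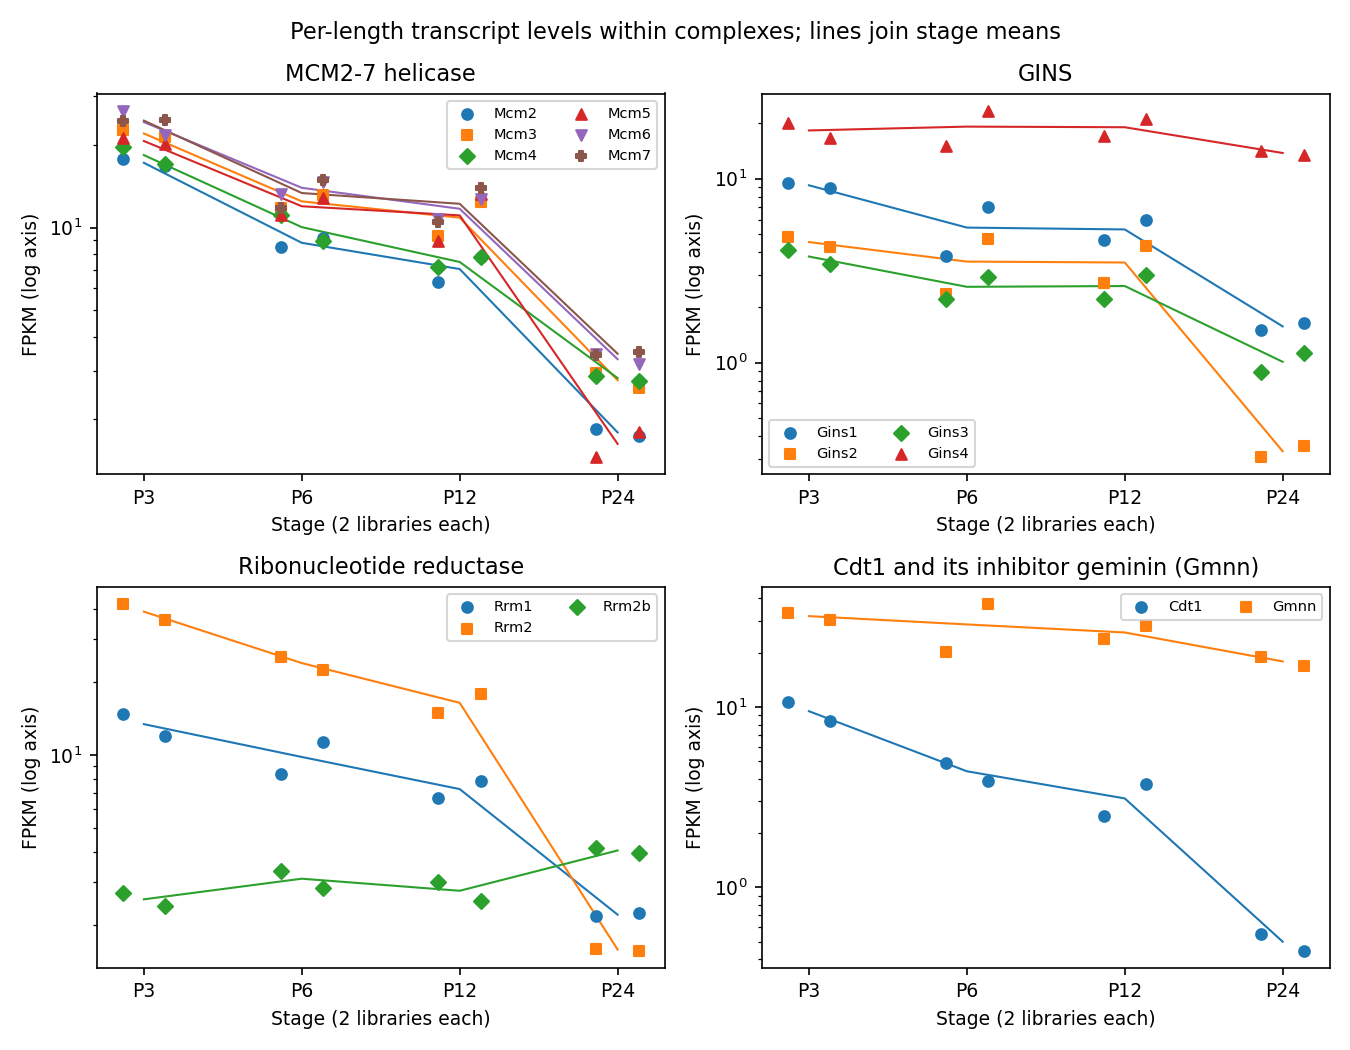
FPKM on a log axis for the helicase, GINS, ribonucleotide reductase, and Cdt1 with its inhibitor geminin; points are libraries and lines join stage means, with P3 at the left. The helicase subunits fall together, Mcm5 the most from P12 to P24, while Gins4, Rrm2b and Gmnn separate from their partners at P24.

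Among the primase and polymerase genes all 7 fell, in a deep and a shallow group. Pole, the catalytic subunit of the leading-strand polymerase, lay at 1027 and 910.4 in the P3 pair, 501 and 362 in the P6 pair, 317 and 449.9 in the P12 pair and 73.2 and 86.1 in the P24 pair (log2 change at P24 vs P3 -3.59 ± 0.23 (SE), limma, BH-adjusted p = 6.34e-06). Prim1, the catalytic primase subunit, fell by 3.34 and Pole2, the second subunit of that polymerase, by 3.18. Prim2, the large primase subunit, fell by 1.66, Pold1, the catalytic subunit of the lagging-strand polymerase, by 1.53, and Pola1, of the polymerase that extends primers, by 1.43. Pola2, its second subunit, changed least and lay at 955 and 1011 in the P3 pair, 723 and 871 in the P6 pair, 725 and 858 in the P12 pair and 499.9 and 466 in the P24 pair (-1.02 ± 0.16 (SE), limma, BH-adjusted p = 0.00108). The small subunits outside the list moved less: Pold2, Pold3 and Pole4 fell by 0.67, 0.97 and 0.64, and Pole3 (-0.22) and Pold4 (0.16) did not pass.

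The sliding clamp and its loader fell moderately. Pcna lay at 3549 and 3204 in the P3 pair, 1969 and 3561 in the P6 pair, 2386 and 3033 in the P12 pair and 1097 and 1005 in the P24 pair, so that P6 overlapped both P3 and P12, P12 lay below P3, and P24 lay below all other libraries (log2 change at P24 vs P3 -1.68 ± 0.25 (SE), limma, BH-adjusted p = 0.00101). It kept the highest per-length level of the polymerase and clamp genes, at 15.6 FPKM at P24 and 50.2 FPKM at P3. The loader subunits fell by 1.87 (Rfc4), 1.86 (Rfc3), 1.77 (Rfc5) and 1.22 (Rfc2). Rfc4, with the largest change, lay at 767 and 749.9 in the P3 pair, 368 and 879 in the P6 pair, 435 and 611 in the P12 pair and 219.5 and 196 in the P24 pair, and Rfc2 at 1540 and 1550 in the P3 pair, 987 and 1425 in the P6 pair, 1046 and 1280 in the P12 pair and 657 and 669 in the P24 pair. Rfc1, the large subunit that clamp loading also uses, was no member and did not pass (-0.40, limma, BH-adjusted p = 0.0633).

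Genes that finish the lagging strand and guard single strands ranged from -5.10 to -0.68 in log2 change at P24 vs P3. Exo1, an exonuclease of mismatch repair and resection, lay at 331 and 305 in the P3 pair, 195 and 129 in the P6 pair, 129.6 and 162 in the P12 pair and 13.6 and 4.92 in the P24 pair, where single reads limit its precision (log2 change at P24 vs P3 -5.10 ± 0.39 (SE), limma, BH-adjusted p = 2.08e-05). Lig1, the replicative DNA ligase, fell by 3.23 and Fen1, the flap endonuclease, by 2.42. Rpa1 and Rpa2, subunits of the protein that coats single-stranded DNA in replication and in repair, fell by 0.68 and 1.29. Rpa1 lay at 3386 and 3059 in the P3 pair, 2422 and 2586 in the P6 pair, 2531 and 2616 in the P12 pair and 2039 and 1980 in the P24 pair, a small change with little spread (limma, BH-adjusted p = 0.00339). Rpa3, the third subunit, did not pass (-0.58).

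Of the 5 nucleotide supply genes 4 fell, most of all the S phase form of ribonucleotide reductase. Rrm2, the S phase small subunit of ribonucleotide reductase, which makes deoxynucleotides, lay at 3239 and 2802 in the P3 pair, 1976 and 1741 in the P6 pair, 1157 and 1394 in the P12 pair and 125 and 122 in the P24 pair (log2 change at P24 vs P3 -4.60 ± 0.16 (SE), limma, BH-adjusted p = 8.44e-07). Its large subunit Rrm1 fell by 2.60. Rrm2b, the alternative small subunit used outside S phase, was no member, and rose: it averaged 1037 ± 31.7 at P24 and 652 ± 57.8 at P3 (SD, n = 2 each; log2 change 0.67, limma, BH-adjusted p = 0.00971). Per length, Rrm2 stood at 0.388 and 0.396 of the level of Rrm2b in the P24 libraries, and at 15.4 and 15.1 times that level in the P3 libraries. Thymidine kinase showed a like order of levels, with the cytosolic S phase form Tk1 at 0.381 and 0.392 of the mitochondrial form Tk2 at P24 and at 3.61 and 3.24 times it at P3. Tk1 fell by 2.91, while Tk2 did not pass (0.23, limma, BH-adjusted p = 0.288). Tyms, thymidylate synthase, fell by 2.92. Dut, which removes dUTP, did not pass and lay at 1146 and 1155 in the P3 pair, 826 and 1505 in the P6 pair, 1179 and 1352 in the P12 pair and 698 and 803 in the P24 pair (log2 change at P24 vs P3 -0.62 ± 0.25 (SE), limma, BH-adjusted p = 0.0827). As for Gins4, its P24 libraries were the lowest of all, and both genes passed in the fits without either or both P6 libraries, at limma BH-adjusted p between 0.000563 and 0.000652 for Dut and between 0.0232 and 0.0249 for Gins4.

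Dtl and Clspn had the largest and the second largest change of the 44. Dtl targets Cdt1 for breakdown on replicating DNA; it lay at 810.2 and 680.1 in the P3 pair, 361 and 323 in the P6 pair, 208 and 264 in the P12 pair and 13.6 and 14.8 in the P24 pair (log2 change at P24 vs P3 -5.62 ± 0.19 (SE), limma, BH-adjusted p = 8.44e-07). Clspn, claspin, which links the fork to the checkpoint kinase, lay at 809 and 794 in the P3 pair, 499 and 414 in the P6 pair, 365 and 454 in the P12 pair and 23.0 and 20.9 in the P24 pair (-5.13 ± 0.18 (SE), limma, BH-adjusted p = 8.44e-07). The E2F matches of Dtl and Clspn printed above are centred 4 and 25 bases from the start. Dtl is 1 of 12 members whose gene overlaps another protein-coding gene in the RefSeq annotation, so reads could be shared between them. Of the chromatin genes, Chaf1b and Chaf1a, subunits of the histone chaperone that follows the fork, fell by 3.91 and 2.26. Chaf1b lay at 504 and 497 in the P3 pair, 249 and 259 in the P6 pair, 169.6 and 254 in the P12 pair and 32.52 and 31.97 in the P24 pair. Slbp, which binds the stem-loop of replication-dependent histone messages, fell by 1.23 and lay at 1262 and 1314 in the P3 pair, 809.8 and 1119 in the P6 pair, 967 and 1072 in the P12 pair and 598 and 504 in the P24 pair.

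The median change was largest in the last step and smallest in the middle one. At P6 vs P3 the median change of the 44 was -0.65, against 0.00 over all genes tested, at P12 vs P6 it was -0.12, against -0.03, and at P24 vs P12 it was -1.76, against 0.03. Per day these medians come to -0.217, -0.021 and -0.147. Among the 42 genes that fell over the whole span, the median share of the log2 change was 26.3% in the first step, 4.19% in the second and 69.8% in the third. The middle median rests on single libraries: it was -0.31 without P12 replicate 2 and -0.25 without P6 replicate 1, but 0.07 without P12 replicate 1 and 0.06 without P6 replicate 2, so no direction is given for that interval. With 1 library left out, the median of the first step ran from -0.79 to -0.49 and that of the last from -1.92 to -1.59. The shares above rest on the same libraries. The last step was the largest for 41 genes, and the first for Pola1, Pold1 and Rpa1.

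**Figure D5:**
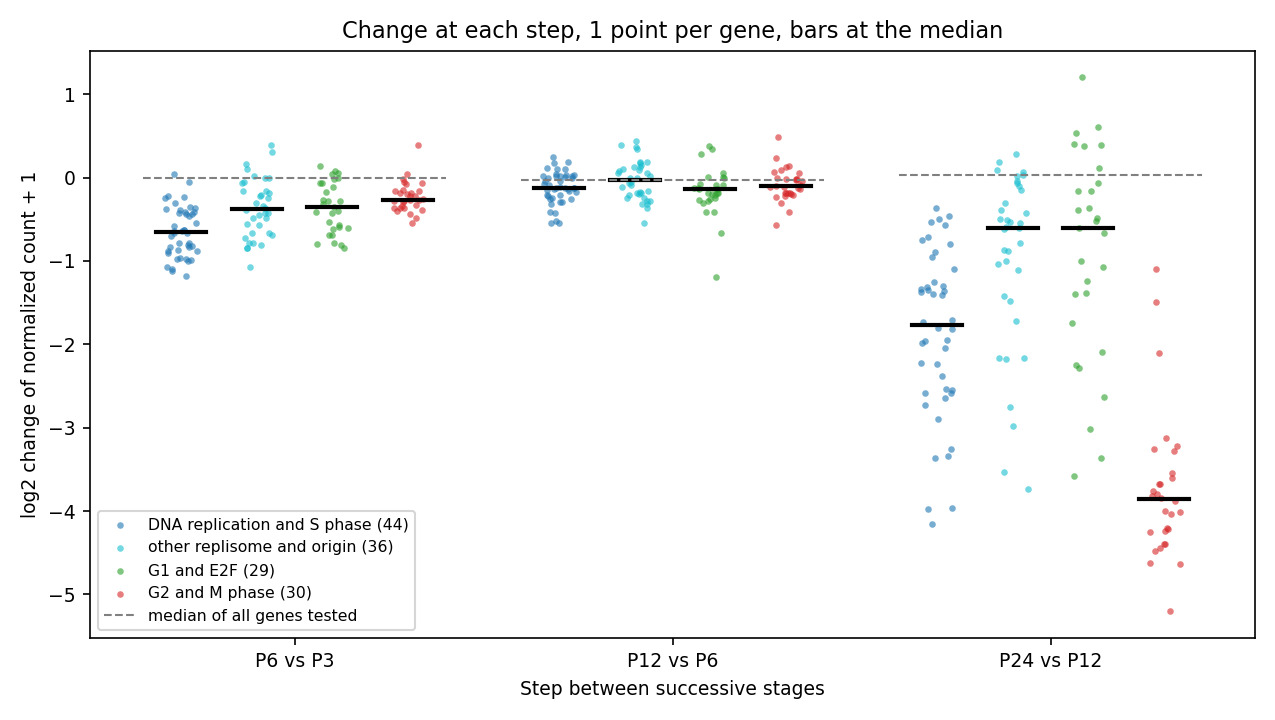
Log2 change of normalized count + 1 at each step for 4 gene lists, 1 point per gene with the median as a bar; the dashed line is the median of all genes tested. The replication genes have medians of -0.65, -0.12 and -1.76 over the 3 steps, and the G2 and M phase genes -0.26, -0.10 and -3.86.

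At P6 vs P3, 4 of the 44 genes fell and none rose, where 0.185% of all genes tested fell and 0.655% rose. Dtl fell by 1.12 (limma, BH-adjusted p = 0.0449) and Lig1 by 0.98 (limma, BH-adjusted p = 0.0468). The helicase genes Mcm2 and Mcm4 fell by 0.97 and 0.87 (limma, BH-adjusted p = 0.0305 and 0.0482). In all, 31 members had an unadjusted p below 0.05, against 15.2% of all genes tested. Mcm2 lay at 1652 and 1779 at P6, against 3458 and 3263 at P3, and Lig1 at 959 and 859 at P6, against 1829 and 1756 at P3. For 36 genes both P6 libraries lay below both P3 libraries, which held for 19.8% of genes tested. The 8 that overlapped were Gins2, Gins4, Orc6, Pcna, Rfc4, Prim2, Gmnn and Dut, each with a P6 replicate 2 above its P6 replicate 1. How many members passed, and how many of all genes tested, depended on the libraries kept. The members' median was -0.58 without P3 replicate 1 and -0.79 without P3 replicate 2. It was -0.49 without P6 replicate 1 and -0.77 without P6 replicate 2, and stayed at -0.65 without either library of P12 or P24.

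At P12 vs P6 no member passed, where 1.26% of all genes tested fell and 0.996% rose. Limma gave 4 members an unadjusted p below 0.05, where 18.7% of all genes tested had one, and edgeR, DESeq2 and limma-voom on the recovered reads also called 0. Both P12 libraries lay below both P6 libraries for 8 genes (Mcm2, Mcm4, Mcm6, Cdt1, Pola1, Rrm1, Rrm2 and Dtl), against 24.8% of genes tested. Without P6 replicate 1, 2 members fell, where 2.93% of all genes tested did. Without P6 replicate 2, 3 members fell and 4 rose, where 22.2% of all genes tested fell.

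At P24 vs P12, 38 of the 44 fell and none rose, where 8.14% of all genes tested fell and 8.2% rose. The largest changes were those of Clspn (-4.15), Exo1 (-3.97), Dtl (-3.96), Rrm2 (-3.36), Gins2 (-3.34), Cdc6 (-3.25), Mcm10 (-2.89), Mcm5 (-2.73), Chaf1b (-2.65) and Cdt1 (-2.59). Pold1, Pola1, Rpa1, Gmnn, Dut and Gins4 did not pass, with changes between -0.75 and -0.36. Both P24 libraries lay below both P12 libraries for all 44 genes, which held for 35.9% of genes tested. Genes with the larger change in the first step tended to have the larger change in the last: across the 44 genes, between contrasts that share no library, Pearson's r was 0.57 and Spearman's rho 0.59. This is a description over genes measured in the same libraries, not over independent samples.

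At P12 vs P3, 24 members fell, where 13% of all genes tested fell and 11.4% rose, among them all 6 helicase subunits (-1.29 to -0.93), Dtl (-1.66), Cdt1 (-1.62) and Pole (-1.35). How many members, and how many of all genes tested, passed depended on the libraries kept. The members' median, -0.87 with all libraries, was -0.64 without P12 replicate 1 and -0.74 without P3 replicate 1. Without both P6 libraries 36 members fell, where 26.8% of all genes tested did. Both P12 libraries lay below both P3 libraries for 38 genes, which held for 40.4% of genes tested, and for Dut both lay above. At P24 vs P6, 40 members fell, where 13.7% of all genes tested fell and 13% rose, and Gmnn, Rpa1, Dut and Gins4 did not pass. Both P24 libraries lay below both P6 libraries for all 44, which held for 29.5% of genes tested.

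Other genes of the same processes were followed from lists that were also chosen with earlier results of these data known. Of 36 other replisome and origin genes, 23 fell at P24 vs P3 and none rose, with a median of -0.87. Ticrr, which brings Cdc45 to the helicase, fell by 4.93, and Top2a, the topoisomerase of dividing cells, by 4.59, while its paralog Top2b (-0.16) and Top1 (-0.37) did not pass. Of 18 other nucleotide supply genes 7 fell and 3 rose (median -0.25): Dctd, dCMP deaminase, fell by 2.48, while Rrm2b, Samhd1, which breaks down deoxynucleotides, and Dguok, a mitochondrial nucleoside kinase, rose by 0.67, 0.59 and 0.63. Of 16 other chromatin assembly genes 13 fell and none rose (median -1.24), led by Uhrf1, which guides maintenance methylation, at -4.73 and the remodeller Hells at -4.26, while Rbbp7 (-0.24), Asf1a (0.02) and Hira (-0.28) did not pass. All 30 G2 and M phase genes fell at P24 vs P3, with a median of -4.21, and 20 of 29 G1 and E2F genes did, with 4 rising and a median of -1.35. Differences between the lists were not tested.

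Markers of other cell types moved over the same span. Of 5 fibroblast markers, Postn, Col1a1 and Tcf21 fell and Dcn rose, and their sum was 29290 and 30100 at P24, against 92950 and 56460 at P3. Of 5 macrophage markers 4 rose, with sums of 6572 and 6751 at P24, against 2796 and 2309 at P3. None of 5 endothelial markers passed (sums of 25140 and 28420 at P24 and of 25320 and 26820 at P3). Of 6 heart muscle markers Pln rose. Of 8 erythroid markers Slc4a1 fell, and Klf1 was too low to test. Of 5 pericyte and smooth muscle markers Rgs5 and Kcnj8 rose and Acta2 fell. No atrial marker of 4 passed, with sums of 3058 and 2924 at P24 and of 10800 and 4046 at P3, where the replicates differed widely. Of 3 lymphocyte markers Ptprc rose, while Cd3e was at 0 in both P3 libraries. The part of these cell types in the fall of the replication genes was not tested.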

How the data were processed

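RNA from whole ventricle was sequenced in 8 libraries, 2 per stage, with stage and replicate taken from the titles. Per the file headers, the authors deposited a normalized count, a signal scaled by 1 factor per library, and an FPKM value per gene, 16 value columns in all. Per the submitters' processing notes, the build was GRCm39 and the tools named, with no roles, were DESeq2 1.32.0, STAR 2.7.3a, Trim Galore 0.6.4 and HTSeq 0.11.2; annotation release and strand setting are not given in the sources used here. Reads of 12 members that overlap another protein-coding gene, such as Mcm7 and Dtl, may therefore be shared with it. Within a gene FPKM and normalized counts were proportional, so only the latter were tested. With a tolerance of 0.001, 100% of values were whole multiples of 1 read.

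Since the values are not raw counts, limma 3.58.1 in R 4.3.3 was fitted to log2(normalized count + 1) in all 8 libraries, with stage as a factor and trended variances (4 residual degrees of freedom). Fold changes on that scale understate the change of low genes. Genes with at least 10 in at least 2 libraries were tested (14055), 2-sided, with BH adjustment over all of them at 0.05. Alternatives used edgeR 4.0.16 and DESeq2 1.42.0 on recovered reads, other scalings, filters and pseudocounts, and samples left out. The fit was tested on simulated data. In the library with fewest reads, 3 reads, the limit behind a value of 0, are 1.28e-05% of the total, for counting error only. Members and gene lists were chosen with earlier results of these data known. Values per library are given, by role, for the genes with the largest and smallest change and for those that did not pass; of the other lists, the 2 largest falls and up to 6 genes that did not fall are named, apart from 1 gene that is not reported here. Complex partners (Orc2 to Orc5, Rfc1, Rpa3, the small polymerase subunits, Rrm2b, Tk2) were chosen after their values were seen.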

Additional observations from a re-analysis of the deposited data

How the results depend on the processing

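All members that passed at P24 vs P3 kept their direction in each of the 24 alternatives, and 41 of the 44 passed in all 8 fits with 1 library left out. The count of members that fell was 41 to 44 at P24 vs P3, 27 to 44 at P24 vs P12 and 32 to 44 at P24 vs P6 over the fits with a library left out. At P12 vs P3 it was 7 to 36, and at P12 vs P6 0 to 3. At P6 vs P3 the 4 became 0 to 25 with a library left out, 0 with only the libraries of both stages, 18 with DESeq2, 2 with edgeR, 5 with limma-voom, 11 with the gene length trend removed, and 1 each with no filter, with scaling by library size alone and with a term for Y-linked reads. The share of all genes tested that fell there was 0.185% in the main fit, 1.49% with DESeq2 and 0.719% with the length trend removed. It was 0.164% with edgeR, 0.263% with limma-voom and 0.00728% with only both stages. It was 0.085% with no filter, 0.107% with library size alone and 0.142% with the Y-linked term. The members' median in these fits lay between -0.74 and -0.59. The share of all genes that fell also moved with the library left out, at every contrast. The cause was not tested. The 4 were among the DESeq2 calls. Scaling by library size alone put the median of all genes at P24 vs P3 at -0.36, against -0.02 before, and the members' median at -2.99, which is -2.62 relative to it. The fit with edgeR that left out both P6 libraries, added after seeing the data, gave 44 at P24 vs P3, where 28.2% of all genes tested fell. With the replicate block the counts were 43, 5, 0, 41, 26 and 40 for P24 vs P3, P6 vs P3, P12 vs P6, P24 vs P12, P12 vs P3 and P24 vs P6. In the same order, 19.9%, 0.242%, 2.08%, 9.48%, 16.6% and 15.0% of all genes tested fell with that block. Deviations of same-numbered libraries correlated between -0.14 and 0.32, so the numbers were not taken as pairs. With 2 libraries a stage, depth limits only the lowest P24 values, such as those of Exo1 and Orc1.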

Other observations

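Of 29 genes of the G1 and E2F list, 20 fell and 4 rose at P24 vs P3, where 18.2% of all genes tested fell and 18.7% rose. E2f1, an activator, fell by 4.09 on the log2 scale and Mybl2, a target and partner of the same circuit, by 4.25. Tfdp2, a dimer partner of E2F factors, rose by 1.30, E2f6, a repressor, by 0.73, and the pocket proteins Rb1 and Rbl2 by 0.55 and 0.50 (limma, BH-adjusted p between 0.00185 and 0.0456). E2f4, the main E2F of resting cells, did not pass, with a change of 0.20.

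The P12 libraries differed in the replication genes as a block. P12 replicate 2 lay above replicate 1 for 43 of the 44 genes, by a median log2 difference of 0.33, against -0.03 over all genes tested, and Pola1 was the exception. The widest gaps were those of Tyms (0.86) and Tk1 (0.71). G2 and M phase genes differed likewise, with 29 of 30 higher and a median of 0.28. At P6, replicate 2 lay above replicate 1 for 31 of 44 genes, with a median of 0.25, from 1.25 for Rfc4 to -0.59 for Exo1. The P3 libraries were also split to 1 side, by less: replicate 2 was higher for 5 of 44 genes, with a median of -0.12. At P24 it was higher for 16 of 44, with a median of -0.07, and over all genes tested both medians were -0.01. The P6 differences followed gene length, with a Spearman correlation of -0.49 over the members and -0.51 over all genes tested, whereas at P12 it was -0.06 over the members.

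Y-linked genes had 5260 reads in P24 replicate 2, 7182 reads in P12 replicate 1 and 5722 reads in P6 replicate 1, while no other library had more than 4. In each of these 3 stages more of the members were higher in the library without such reads: 31 of 44 at P6, 43 of 44 at P12 and 28 of 44 at P24, with median log2 differences of 0.25, 0.33 and 0.07. Over all genes tested the shares were 49.2%, 44.3% and 53.5%, beside 70.5%, 97.7% and 63.6% of the members. The difference itself was not tested. Both P3 libraries lacked such reads (4 and 2), so contrasts with P3 were not balanced in them. With a term for Y-linked reads the members' median was -0.59 at P6 vs P3, -0.74 at P12 vs P3 and -2.59 at P24 vs P3. Without that term these medians were -0.65, -0.87 and -2.64.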
